A study of Mus musculus with 15 samples.

Results

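T cells from the spleens of mice of the mixed strain background B6x129 were measured before stimulation (0 h, 3 arrays) and after 4 h with 7.5 ug/ml concanavalin A (ConA, 3 arrays). ConA is a plant lectin that binds mannose-bearing glycoproteins and cross-links the T cell receptor with other surface proteins, so that it activates T cells whatever their antigen specificity. These 6 arrays, taken by their titles and treatment labels, are 6 of the 15 in the series, whose title asks whether Myc amplifies gene expression in general. 2 further sets of arrays give context: 3 of the same T cells after 14 h with 7.5 ug/ml ConA, and 6 of spleen B cells of the same background, 3 at 0 h and 3 after 4 h with 25 ug/ml lipopolysaccharide (LPS), a bacterial activator of Toll-like receptor signalling. The labels name the source as spleen and the cells as splenocytes kept in culture, and they do not say how T cells were separated or whether replicates were separate mice or cultures, so p-values measure the spread between these arrays, which may be technical. A group cultured for 4 h without ConA was not analysed here, so effects of ConA and of culture cannot be told apart.

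When a resting T cell receives a signal through its receptor, tyrosine kinases and adaptor proteins open calcium entry and the Ras and protein kinase C routes. The factors NFAT, AP-1 and NF-kappaB then enter the nucleus and switch on genes of the first hours: further transcription factors, cytokines and their receptors, and feedback inhibitors that limit the same routes. Over the next day the cell leaves quiescence, enlarges, builds ribosomes and enters division, and the transcription factor Myc is known as a driver of that growth phase.

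Values are log2 signals of Affymetrix probe sets, made comparable between arrays by the authors, with a floor at 2.24. For each gene 1 probe set was used, and the 9045 of 18194 genes whose mean reached 5 in at least 1 of the 5 groups were tested. A difference of 1 on this scale is a 2-fold change; a change is given as 4 h minus 0 h with its standard error (SE) from limma, and a gene was called as having risen or fallen when its Benjamini-Hochberg adjusted p over the 9045 genes was under 0.05. A group mean under 4 lies close to the floor, and a change measured against such a group is a lower bound, written "at least".

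The labelled cell type was checked against marker genes. At 0 h the receptor chains Cd3d and Cd3g read 13.78 ± 0.03 and 13.35 ± 0.05 (SD, n = 3), and the coreceptor chain Cd8b1 read 13.22 ± 0.11. B cell markers were mixed: the receptor subunit Cd79a (2.34 in both groups) and the B cell factor Pax5 (2.24 in both groups) lay at or near the floor, while the immunoglobulin gene Ighm read 13.76 at 0 h and 13.42 at 4 h (a change of -4.27 with its most variable probe set). The summed linear signal of the 11 B cell markers, most of it from Ighm, was 14480 to 15702 on the 0 h arrays and 12077 to 13247 on the 4 h arrays. Of these 11 markers 4 rose (Ms4a1, Cr2, Fcer2a and H2-Aa) and 2 fell (Cd79b and Ighm), where 33.4% and 32.5% of all genes tested did. Of 12 macrophage markers 8 were near the floor in both groups, among them Csf1r, C1qa, Cd14 and Fcgr1; Lyz2 (7.16 at 0 h) and Lyz1 (8.34) fell by 0.98 ± 0.19 and 0.80 ± 0.12, and the summed linear signal of the list was 548 to 753 at 0 h and 384 to 465 at 4 h. The natural killer markers Ncr1, Klra8 and Klre1 were near the floor, while Nkg7 (11.75), Klrd1 (11.68) and Prf1 (8.15), which cytotoxic T cells also express, were not.

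1 transcript and 2 arrays stood apart. The X-inactivation transcript Xist read 12.15, 12.31 and 12.29 at 0 h, 4.33, 2.38 and 2.84 at 4 h, and 11.77 on average at 14 h. Its fall of at least 9.06 ± 0.33 stands beside small rises of the Y-linked genes Eif2s3y (0.92 ± 0.13), Uty (0.53 ± 0.15) and Kdm5d (0.43 ± 0.16), none of them called with the most variable probe set, and in B cells Xist changed by -9.65 between the same times. The sex of the mice is not in the labels, so a difference between the mice used at 0 h and at 4 h cannot be told apart from the treatment. A spike-in control RNA (dap) gave a 3' signal above its 5' signal by 4.52 on the 0 h replicate 2 and by 5.35 on the 4 h replicate 1, against 1.46 to 1.96 on the other 4 arrays. Without those 2 arrays 2946 genes rose and 2761 fell. Correlations over the 18194 genes, with 1 probe set each, were 0.998 to 0.999 within each group and 0.975 to 0.976 between the groups.

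Of the 9045 genes tested, 3024 (33.4%) rose and 2938 (32.5%) fell after 4 h of ConA, and 845 and 1044 of them did so at least 2-fold. The median change of all tested genes was 0.0025, and the median SE was 0.11. The arrays of the 2 groups did not overlap for 6266 genes (69.3%). A gene low at 0 h could enter the test because it was induced, so for gene lists with 3 or more such members counts are also given over members with a 0 h mean of at least 5; of all 8336 such genes 33.3% rose and 34.2% fell. No list's count is read as support beyond its values. Every array received the same mass of RNA, so these values hold no information on how much RNA a cell contained, and in bulk samples fewer cells of a type and less RNA per cell cannot be told apart. Rises and falls were about equally common among well-expressed genes: in the 4 higher of 5 equal bins of the mean level, 50.2% to 53.9% of the called genes had risen, against 40.9% in the lowest bin. The authors' scaling brings the arrays to a common level, so the small median change and this balance are largely set by it. They carry no result on whether expression rose in general.

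**Figure D1:**
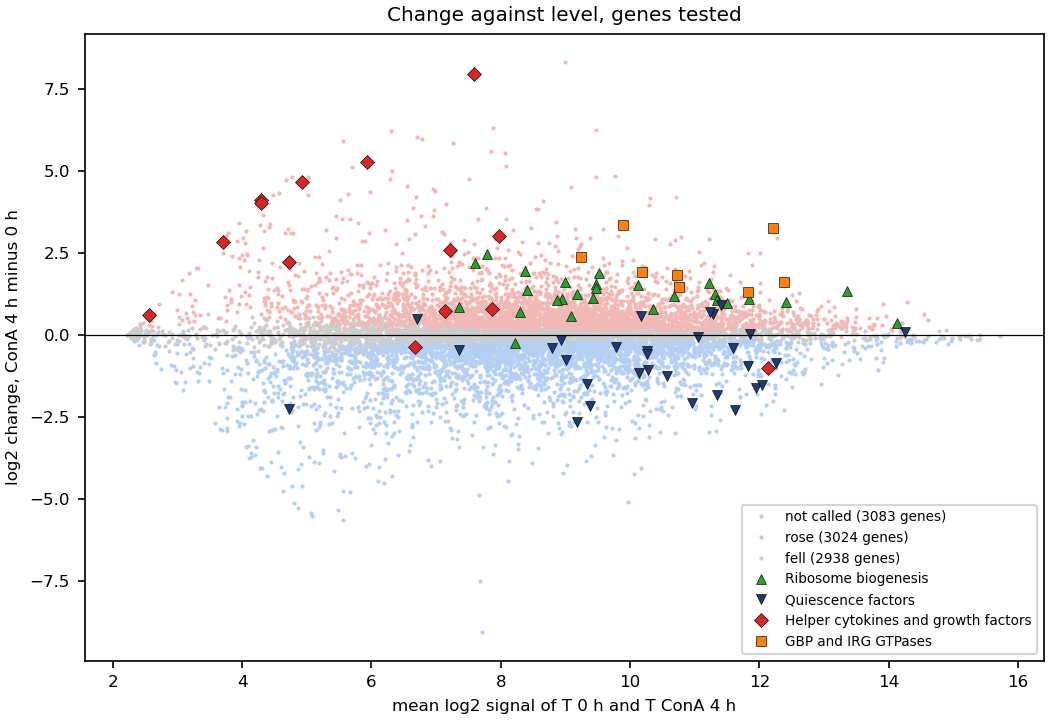
Change after 4 h of ConA (log2, 4 h minus 0 h, vertical axis) against the mean log2 signal of the 2 groups (horizontal axis) for the 9045 genes tested, with 4 gene groups marked. The 3024 rises and 2938 falls lie on both sides of 0 at every level, the 27 ribosome biogenesis genes lie above 0 except for Ubtf, and the 8 GBP and IRG GTPases all lie above 1.

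Myc itself rose in this comparison, with more spread between arrays than most genes. The 0 h arrays read 8.38, 6.88 and 7.80 and the 4 h arrays 8.37, 10.21 and 10.19, so the groups overlapped by the first array of each. The fitted change was 1.91 ± 0.43 (3.75-fold, adjusted p = 0.00143 by limma). The lowest array of each group was the 1 with the uneven spike-in signal, and without those 2 arrays the change was 2.12 ± 0.20. In the fit to these 6 arrays alone the adjusted p was 0.0414. Myc stood at 9.89 at 14 h. In B cells Myc rose by 4.87 ± 0.43 with LPS, and the difference between the 2 responses was -2.96 (adjusted p = 0.00069), where 66.1% of all genes tested had responses that differed between the cell types.

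The largest changes described next were chosen among genes whose 0 h and 4 h arrays did not overlap. The largest rise was that of Irf4, a transcription factor whose level tracks the strength of the T cell receptor signal. It read 5.15, 5.19 and 4.20 at 0 h and 13.05, 13.25 and 13.15 at 4 h, a change of 8.31 ± 0.19 (317-fold, adjusted p = 3.72e-13 by limma). Irf4 read 12.70 at 14 h. Il6, an inflammatory cytokine, went from 3.73, 3.54 and 3.57 to 11.64, 11.59 and 11.49, a change of at least 7.96 ± 0.07 (249-fold), and was lower again at 14 h (8.50). The chemokine Ccl4 rose from 4.59, 4.42 and 5.17 to 11.34, 10.90 and 10.85 (6.31 ± 0.31, 79.1-fold).

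Genes of several kinds followed. Crem, a cyclic AMP responsive factor with activating and repressing isoforms, rose from 6.47, 6.27 and 6.27 to 12.34, 12.64 and 12.80 (6.26 ± 0.13), and with the mean of its probe sets by 3.59. Lad1, an anchoring filament protein described in epithelia, rose by at least 6.22 ± 0.12. The surface semaphorin Sema7a rose from 3.89, 3.76 and 3.76 to 9.99, 9.57 and 9.74 (at least 5.97 ± 0.10; 3.09 with the mean of its probe sets). Spry1, an inhibitor of Ras signalling to ERK, rose from 2.40, 3.13 and 2.31 to 8.55, 8.44 and 8.54 (at least 5.90 ± 0.15). Plagl1, a zinc finger factor, rose by 5.85 ± 0.21, and the orphan nuclear receptor Nr4a2 by 5.54 ± 0.15. Frmd4b, a FERM domain scaffold protein, rose by 5.60 ± 0.14, the AP-1 subunit Fosl2 by 5.15 ± 0.09 and the adaptor Sh3bp2 by at least 5.00 ± 0.16. With the mean of all probe sets of a gene, Nr4a2 and Frmd4b rose by 3.37 each and Fosl2 by 3.19. The other probe sets of Plagl1 stayed near the floor: the first read 2.24 and then 2.30, the second 2.24 at both times. Il2, the growth factor that activated T cells make for themselves and for regulatory T cells, rose from 3.43, 3.33 and 3.11 to 8.77, 8.43 and 8.49 (at least 5.27 ± 0.13). Unlike Il6, Il2 stood higher still at 14 h (9.44).

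Mir155hg, the host transcript of the microRNA miR-155, rose from 3.76, 3.57 and 3.76 to 9.21, 9.98 and 9.96 (at least 6.02 ± 0.18). The arrays measured this host transcript and not the mature microRNA. The 2 mature strands cut from it are shown because the seed, bases 2 to 8 (in capitals), sets which messages a strand can pair with; the 5p strand is known as the main one in lymphocytes. The sequences are RefSeq's, on chromosome 16 of GRCm38.p6, plus strand, at chr16:84714143-84714165 for the 5p strand and chr16:84714182-84714202 for the 3p strand.
mmu-miR-155-5p: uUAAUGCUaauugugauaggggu
mmu-miR-155-3p: cUCCUACCuguuagcauuaac

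Xist set aside, the largest fall was that of Dtx1, a Notch pathway ubiquitin ligase also described as a target of NFAT in anergic T cells. It read 11.35, 11.47 and 11.43 at 0 h and 3.95, 3.86 and 3.97 at 4 h, a fall of at least 7.49 ± 0.07 (180-fold, adjusted p = 7.11e-17 by limma; -4.13 with the mean of its probe sets). At 14 h it had come back in part, to 5.65. Scg5, a secretory granule chaperone, went from 8.40, 8.38 and 8.39 to 2.92, 2.78 and 2.52 (at least -5.65 ± 0.15). The cytoskeletal adaptor Pdlim4 went from 7.88, 8.04 and 7.62 to 2.33 on each 4 h array (at least -5.52 ± 0.14) and stood at 5.78 at 14 h.

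Tet1, an enzyme that oxidises methylated cytosine, went from 7.76, 7.69 and 7.89 to 2.39, 2.24 and 2.39 (at least -5.44 ± 0.11) and read 2.29 at 14 h. Other probe sets of Tet1 went from 5.54 to 2.24 and from 3.94 to 2.26, and another read 2.48 at both times. The carrier gene Slc16a5 and the AMP deaminase Ampd1 were at the floor on all 3 of the 4 h arrays, falls of at least 5.26 ± 0.06 and 5.13 ± 0.10. The other probe set of Slc16a5 read 2.24 at both times. Lypd6b, a GPI-anchored Ly6 family protein, fell by at least 5.35 ± 0.15. Sit1, an adaptor that dampens T cell receptor signalling, went from 10.06, 10.16 and 10.07 to 5.60, 5.02 and 5.03 (-4.88 ± 0.13). P2rx7, an ATP-gated channel (at least -4.60 ± 0.17), the nonmuscle myosin Myh10 (at least -4.59 ± 0.44) and the dynein heavy chain Dnah8 (at least -4.52 ± 0.22; -2.26 with the mean of its probe sets) fell as well. The other probe set of Myh10 read 2.24 at both times.

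Hspa1b, an inducible heat shock protein, was already high at 0 h (12.45, 12.49 and 12.60) and read 7.75, 7.14 and 7.36 at 4 h, a change of -5.10 ± 0.12. Its near-identical neighbour Hspa1a changed by -4.31 ± 0.08, and since the 2 copies can share probes their separate values are uncertain. In B cells Hspa1b rose by 6.53 ± 0.12 and Hspa1a by 6.68 ± 0.08 over the same hours. Aqp1, a water channel, and Klf1, the erythroid Kruppel-like factor, are markers of red cell precursors; Aqp1 went from 8.06, 8.08 and 8.05 to 3.22, 3.39 and 3.20 and Klf1 from 8.16, 7.94 and 7.73 to 3.21, 3.19 and 3.11. Of 8 tested erythroid markers 6 fell, among them the carbonic anhydrase Car1 (12.18 to 7.94) and the blood group protein Ermap (8.13 to 4.11). Tfrc, which dividing T cells also use, rose. Globin Hba-a1 and the heme enzyme Alas2 were at the floor at both times. The summed linear signal of the list was 7395 to 7590 at 0 h and 5081 to 5254 at 4 h. That sum includes Tfrc, which read 10.04 at 0 h and 12.17 at 4 h. Tfrc makes up most of the 4 h sum, so the sum understates the fall of the other members. The part of red cell precursors in other falls was not tested.

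**Figure D2:**
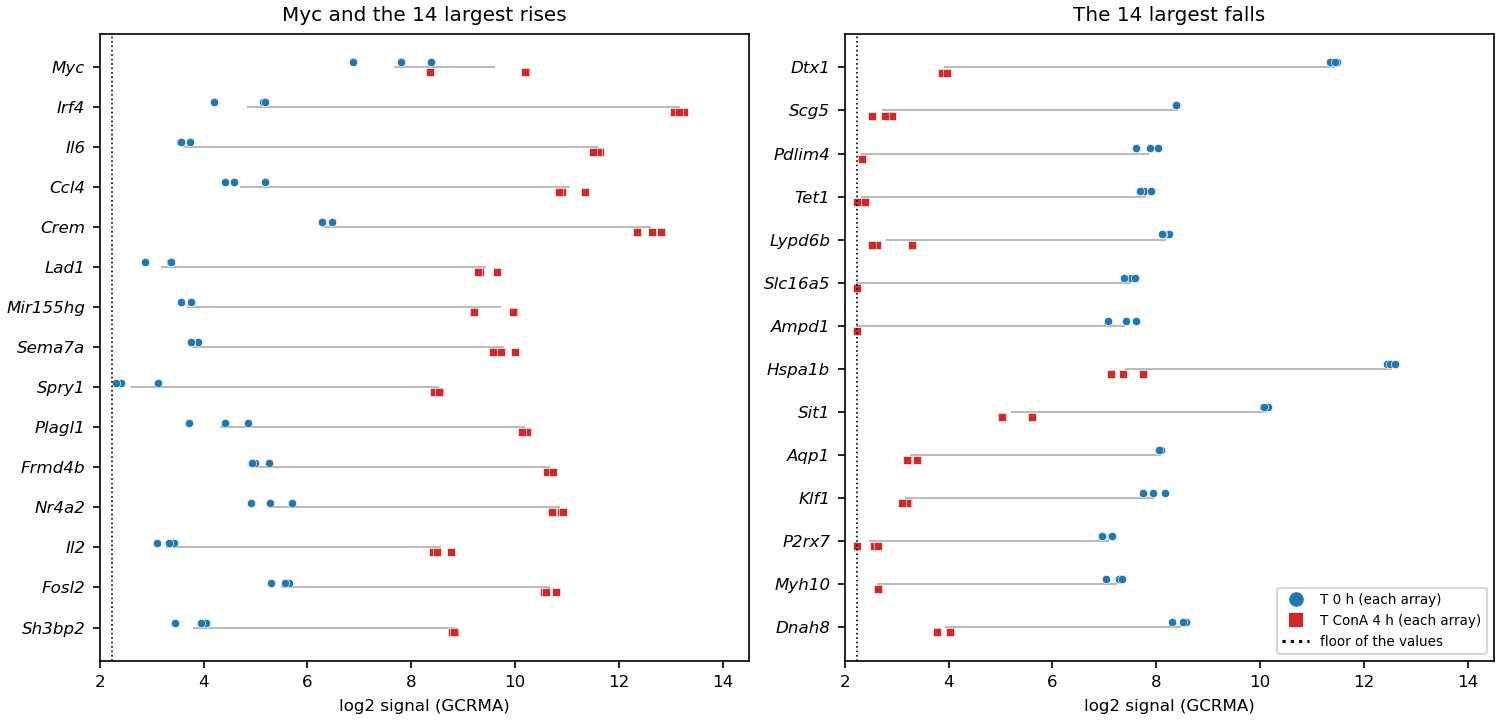
Log2 signal (horizontal axis) of Myc, the 14 largest rises (left) and the 14 largest falls (right) on each T cell array, with circles for 0 h, squares for 4 h of ConA, a grey line between the group means and a dotted line at the floor of the values. The groups overlap for Myc, and the changes shown run up to 8.31 for Irf4 among the rises and to -7.49 for Dtx1 among the falls.

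Promoters were searched for short letter motifs of 8 factor families and for TATAAA, from 250 bases before to 50 after each start in RefSeq (GRCm38.p6), on both strands. Promoters were found for 7425 of the 9045 genes tested. The CRE letters TGACGTCA, bound by the CREB, ATF and CREM family, were in 3.49% of the 832 promoters of genes that rose at least 2-fold and in 0.879% of the 1138 of genes that fell at least 2-fold, against 3.22% for genes tested and 1.79% of all 32851 promoters. The NF-kappaB motif was in 3.12%, 1.23%, 1.66% and 1.63% of these 4 sets. The E-box CACGTG, bound by Myc with Max among others, was in 14.1%, 8.79%, 10.7% and 7.15%. For AP-1 (TGANTCA) the shares were 6.73%, 5.10%, 4.69% and 7.81%, and for the NFAT core (TGGAAA) 20.9%, 17.1%, 16.2% and 21.4%. The other letters searched gave, in the same order, 4.21%, 2.72%, 3.24% and 3.44% for the interferon-stimulated response element motif, 1.56%, 1.14%, 1.27% and 0.612% for EGR (GCGTGGGCG), 14.3%, 9.14%, 19.9% and 8.86% for ETS (CCGGAAG), and 7.81%, 6.5%, 6.92% and 13.6% for TATAAA. In the 48 promoters of the 36 genes that rose at least 16-fold, the CRE, EGR and ETS letters were in 0% and the E-box in 6.25%. AP-1 was in 12.5% (6 promoters), NF-kappaB in 4.17% (2 promoters) and NFAT in 20.8%. The interferon-stimulated motif was in 6.25% and TATAAA in 12.5%. In the 31 promoters of the 24 genes that fell at least 16-fold, AP-1 and the E-box were in 6.45% each and NFAT in 16.1%. ETS and TATAAA were in 9.68% each of these 31, and the other letters in 0%. These shares are descriptions with no test, and a match is not a site.

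5 promoters are shown: Il2, the 2 among the 14 largest rises with an AP-1, CRE or NF-kappaB match (Il6 and Frmd4b), and the 2 largest falls, which hold none of the letters searched. No promoter of Ccl4 or Crem, which are also among the 14 largest rises, entered this choice. Capitals mark the matches. In Il2 (chr3:37125905-37126204, minus strand) they are an NFAT core on the reverse strand, first base at -47 from the start, and a TATA box (TATAAA) at -31. In Il6 (chr5:30012864-30013163, plus strand) they are an AP-1 match at -249, an NFAT core on the reverse strand at -109 and an NF-kappaB match at -44. In Frmd4b (chr6:97459237-97459536, minus strand, 1 of 3 promoters of the gene) they are TATA letters on the reverse strand at -216 and an AP-1 match at -133. Dtx1 lies at chr5:120711620-120711919 and Scg5 at chr2:113829042-113829341, both on the minus strand.
Il2 promoter: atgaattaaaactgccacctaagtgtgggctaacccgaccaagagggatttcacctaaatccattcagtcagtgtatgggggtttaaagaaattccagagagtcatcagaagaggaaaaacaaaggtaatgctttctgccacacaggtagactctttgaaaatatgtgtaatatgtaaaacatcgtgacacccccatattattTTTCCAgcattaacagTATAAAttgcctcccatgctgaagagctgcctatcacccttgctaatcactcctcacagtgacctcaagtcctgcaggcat
Il6 promoter: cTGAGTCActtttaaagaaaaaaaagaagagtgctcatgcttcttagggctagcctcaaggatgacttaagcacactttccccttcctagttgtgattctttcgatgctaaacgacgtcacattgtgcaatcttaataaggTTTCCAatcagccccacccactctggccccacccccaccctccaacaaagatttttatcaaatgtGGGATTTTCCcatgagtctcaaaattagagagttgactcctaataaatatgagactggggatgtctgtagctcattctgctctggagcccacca
Frmd4b promoter: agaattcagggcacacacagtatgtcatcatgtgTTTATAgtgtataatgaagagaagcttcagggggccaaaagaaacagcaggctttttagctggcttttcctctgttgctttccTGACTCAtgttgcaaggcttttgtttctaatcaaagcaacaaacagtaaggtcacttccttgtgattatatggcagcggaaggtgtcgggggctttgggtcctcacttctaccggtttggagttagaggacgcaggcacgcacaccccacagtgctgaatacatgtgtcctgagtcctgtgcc
Dtx1 promoter: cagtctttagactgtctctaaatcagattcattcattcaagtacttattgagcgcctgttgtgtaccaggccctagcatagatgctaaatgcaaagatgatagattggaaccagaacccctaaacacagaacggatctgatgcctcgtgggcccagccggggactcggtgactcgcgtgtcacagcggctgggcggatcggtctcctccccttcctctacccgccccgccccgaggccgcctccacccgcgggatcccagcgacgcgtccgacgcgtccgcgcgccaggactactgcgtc
Scg5 promoter: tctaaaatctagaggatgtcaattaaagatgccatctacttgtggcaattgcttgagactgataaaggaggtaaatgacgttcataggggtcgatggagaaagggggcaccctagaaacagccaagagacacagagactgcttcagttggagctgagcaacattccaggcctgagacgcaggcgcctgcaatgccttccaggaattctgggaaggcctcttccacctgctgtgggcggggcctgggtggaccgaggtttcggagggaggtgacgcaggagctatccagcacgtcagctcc

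Genes of the T cell receptor fell more often than they rose. Of 11 genes of the T cell receptor complex and coreceptors 6 fell and 1 rose (median change -0.54). Thy1, a GPI-anchored T cell surface protein, went from 11.88, 12.09 and 11.89 to 9.36, 8.85 and 8.74 (-2.97 ± 0.12). Cd4 went from 7.71, 7.42 and 7.70 to 5.53, 5.39 and 5.45 (-2.16 ± 0.13). Neither gene's arrays overlapped between the groups. Cd8b1 fell by 2.02 ± 0.12, Cd3g by 0.70 ± 0.09 and Cd3d by 0.54 ± 0.15, Cd2, an adhesion receptor for antigen-presenting cells, rose by 0.35 ± 0.10, and Cd3e (-0.28 ± 0.20), Cd247 (0.05 ± 0.08; called at -0.33 with the mean of its probe sets), Cd5 and Cd6 were not called.

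Signalling proteins behind the receptor fell and rose side by side. In the proximal signalling list 9 of 17 fell and 5 rose (median -0.43), with the thymocyte signalling protein Themis from 9.58, 9.64 and 9.57 to 7.08, 6.77 and 6.77 (-2.72 ± 0.12), the adaptor Grap2 at -1.64 ± 0.24 and the integrin-activating adaptor Skap1 at -1.48 ± 0.07. Malt1, the protease that carries the signal to NF-kappaB, went the other way, from 10.24, 10.49 and 10.35 to 11.78, 11.73 and 11.71 (1.38 ± 0.08), and the kinase Zap70 rose by 0.84 ± 0.24 (0.49 with the mean of its probe sets). Under the choice of the most variable probe set of each gene, 3 of this list rose. Negative regulators of the receptor split as well, 9 of 19 falling and 4 rising (median -0.14). Besides Sit1, the adaptor Sla2 (-2.34 ± 0.13) and the phosphatase family protein Ubash3a (-2.18 ± 0.13) fell, while the ubiquitin ligase Cblb rose from 10.53, 10.68 and 10.70 to 12.40, 12.49 and 12.51 (1.83 ± 0.07).

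In the calcium and NFAT list 10 of 17 fell and 6 rose (median -0.31). The calcium channel subunits moved in opposite directions: Orai2 went from 10.35, 10.40 and 10.56 to 7.46, 7.41 and 7.42 (-3.01 ± 0.10), and Orai1, the pore of the main store-operated channel, from 7.87, 7.71 and 7.86 to 9.94, 9.99 and 9.95 (2.15 ± 0.11). The calcium store sensor Stim1 fell by 2.01 ± 0.21 and the store release channel Itpr3 by 2.01 ± 0.10. The factor Nfatc2 fell by 1.55 ± 0.30, and Nfatc1, whose short isoform is induced on activation, rose by 0.28 ± 0.07 (2.37 with its most variable probe set). Cyclic AMP genes fell in 7 of 12 and rose in 4 (median -0.41), with the adenylyl cyclases Adcy7 (-2.41 ± 0.08) and Adcy6 (-2.20 ± 0.11) and the kinase subunit Prkacb (-1.58 ± 0.11) down and the prostaglandin receptor Ptger2 up (2.16 ± 0.10). In both the calcium and the cyclic AMP list the share that rose was near the 33.4% of all genes tested.

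In the EGR and NR4A list 9 of 12 rose and 1 fell (median 1.78, against 0.0025 over all genes), and Ier2 and Ier5 were not called. Nr4a3, an orphan nuclear receptor like Nr4a2, went from 7.06, 7.27 and 6.90 to 11.78, 11.94 and 11.93 (4.81 ± 0.16; 1.65 with the mean of its probe sets). Egr2, a zinc finger factor tied to tolerance as well as to activation, went from 8.76, 8.55 and 8.51 to 12.93, 12.58 and 12.90 (4.20 ± 0.14), and Nr4a1 rose by 4.18 ± 0.11. Each of these was lower again at 14 h, at 11.37, 10.96 and 11.60. Egr3 rose by 2.93 ± 0.09 (1.46 with the mean of its probe sets) and the EGR corepressor Nab2 by 1.65 ± 0.23, while Srf, which drives immediate early genes, fell by 0.97 ± 0.11 (-0.44 with the mean of its probe sets).

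Among AP-1, ATF and MAF factors 10 of 16 rose and 2 fell, and of the 13 with a 0 h mean of at least 5, 8 rose and 1 fell. Besides Crem and Fosl2, the stress factor Atf3 rose from 2.32, 2.65 and 2.90 to 7.40, 7.48 and 7.36 (at least 4.79 ± 0.14), the small MAF protein Maff by 3.42 ± 0.15 and Batf, a partner of Irf4 on DNA, by 1.72 ± 0.09. Below the filter, Fosl1 read 2.51 at 0 h and 4.93 at 4 h, while Fosb and Batf3 were near the floor at both times. Junb was among the rises, but Fos, Jun and Jund were not. Fos fell by 0.32 ± 0.11 (not called without the 0 h replicate 2, adjusted p = 0.0578, without the 4 h replicate 3, adjusted p = 0.0512, or without both arrays of uneven spike-in, adjusted p = 0.0814, all by limma). Jund was not called and Jun changed by -0.17 ± 0.23 (adjusted p = 0.541 by limma), where Jun rose by 7.02 in B cells with LPS. The other fall was Jdp2, near the floor in both groups (-0.55 ± 0.19). Falls in this list numbered 1 when the 2 arrays with uneven spike-in were left out and 0 without the 0 h replicate 2 or without the 4 h replicate 3. NF-kappaB subunits and inhibitors rose in 13 of 18 and fell in 3 (median 1.20). Tnip2 (3.10 ± 0.22) and Tnfaip3 (2.90 ± 0.06), which restrain NF-kappaB, rose about as far as the subunits Rel (3.07 ± 0.16), Nfkb2 (2.92 ± 0.12) and Relb (2.80 ± 0.09). Rel read 5.45, 5.30 and 4.67 at 0 h and 8.15, 8.26 and 8.20 at 4 h, and Tnip2 4.70, 4.12 and 4.43 and then 7.17, 7.71 and 7.66, without overlap.

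Factors that set T cell identity and fate moved both ways, 13 of 27 rising and 8 falling, or 10 and 8 of the 23 with a 0 h mean of at least 5. After Irf4 came Bhlhe40, which supports cytokine production, from 4.91, 4.85 and 4.42 to 9.17 on each array (4.45 ± 0.13), then Irf8 from 6.54, 6.85 and 6.48 to 10.83, 10.68 and 10.55 (4.07 ± 0.10), and Nfil3 (at least 3.38 ± 0.15). Bhlhe40 was still higher at 14 h (10.26), whereas Irf8 and Nfil3 stood at 10.42 and 5.48. Lineage-defining factors of several helper fates rose together: Ahr by 2.33 ± 0.11 (1.16 with the mean of its probe sets), Bcl6 (follicular helper cells) by 2.12 ± 0.10, Tbx21 (type 1 helper cells) by 2.09 ± 0.14 and Foxp3 (regulatory T cells) by 1.28 ± 0.13. Gata3, the factor of type 2 helper cells, changed by -0.16 ± 0.08 and was not called (called at -0.29 without the arrays of uneven spike-in). Zbtb7b, required for the CD4 lineage, fell by at least 2.77 ± 0.19, the resting-cell factor Lef1 by 1.78 ± 0.24 and Runx3, required for the CD8 lineage, by 1.16 ± 0.09.

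Of 19 helper cytokines and growth factors on the array 11 rose, 1 fell and 5 stayed below the filter. Of the 6 with a 0 h mean of at least 5, 4 rose and 1 fell. Beyond Il6 and Il2, Il4, the type 2 helper cytokine, went from 2.60 on each array to 7.44, 7.08 and 7.23 (at least 4.65 ± 0.10), and Il21, which helps B cells, from 2.24 on each array to 6.65, 6.06 and 6.30 (at least 4.10 ± 0.20). Lif rose by at least 4.01 ± 0.14, Tnf by 3.0 ± 0.12, Il17a by at least 2.84 ± 0.11 and Ifng by 2.59 ± 0.21. The later levels differed between them: at 14 h Ifng stood at 9.89 after 8.51 at 4 h and Lif at 7.46 after 6.30, while Il4 stood at 5.21 after 7.25 and Il21 at 4.30 after 6.34. Ltb, a lymphotoxin subunit of resting lymphocytes, fell by 1.01 ± 0.08, and the 5 below the filter were Il3, Il5, Il9, Il13 and Csf2.

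Of 15 chemokines on the array 9 rose, 1 fell and 5 (Ccl17, Ccl20, Cxcl1, Cxcl11 and Cxcl16) stayed below the filter; Ccl22 is counted as a rise though near the floor in both groups (2.25 and 3.18). Of the 4 with a 0 h mean of at least 5, 3 rose and 1 fell. Xcl1, which attracts cross-presenting dendritic cells, went from 7.32, 7.51 and 7.21 to 12.34, 12.11 and 12.15 (4.85 ± 0.17). Ccl3, a partner of Ccl4, went from 6.83, 6.92 and 6.72 to 11.47, 11.28 and 11.28 (4.52 ± 0.08), and the interferon-induced Cxcl10 rose by at least 4.74 ± 0.16. Ccl5, which memory and CD8 T cells hold ready, fell by 1.86 ± 0.12 and read 8.20 at 14 h after 9.85 at 4 h.

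Cytokine receptors divided almost evenly, with 10 of 23 rising and 11 falling, or 8 and 10 of the 19 with a 0 h mean of at least 5. Il2ra, the chain that gives the IL-2 receptor high affinity, went from 5.56, 4.87 and 5.06 to 9.12, 9.18 and 9.16 (3.99 ± 0.13), and Ifngr1 (1.41 ± 0.12) and Il4ra also rose. Among the falls were Tgfbr3, a TGF-beta coreceptor, from a mean of 9.94 ± 0.16 to 6.60 ± 0.27 (SD, n = 3; -3.34 ± 0.12; -1.67 with the mean of its probe sets), Il10ra (at least -2.08 ± 0.15; -0.69 with that mean), Il6ra (-1.99 ± 0.13) and the survival receptor Il7r (-1.52 ± 0.17). Downstream, 12 of 20 Jak, Stat, Socs and Pim genes rose and 1 fell (median 0.74). The feedback inhibitor Socs1 went from 5.34, 5.04 and 5.04 to 8.66, 8.85 and 8.79 (3.62 ± 0.12) and Cish from 7.70, 7.80 and 7.53 to 10.76, 10.62 and 10.54 (2.96 ± 0.15). Stat5a, which carries the IL-2 signal, rose by 2.51 ± 0.14 and the kinase Pim1 by 2.10 ± 0.10; the single fall was Tyk2 (-0.46 ± 0.09), and the falls numbered 2 without the arrays of uneven spike-in and 3 after cyclic loess.

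Of 22 tested costimulatory and inhibitory genes 13 rose and 5 fell, and of the 15 with a 0 h mean of at least 5, 9 rose and 5 fell. Pdcd1lg2, a ligand of PD-1, went from 3.37, 3.57 and 3.53 to 8.02, 7.82 and 7.49 (at least 4.28 ± 0.19), Pdcd1, PD-1 itself, from 5.59, 5.33 and 5.63 to 8.56, 8.77 and 8.63 (3.13 ± 0.09), and Slamf1 rose by 3.0 ± 0.08. Costimulators and inhibitors of the CD28 family moved the same way: Icos rose by 2.97 ± 0.23, Ctla4 by 1.96 ± 0.14 and Cd28 by 0.70 ± 0.23 (not called without the 4 h replicate 2 or 3, adjusted p = 0.0585 and 0.0565). Lag3, an inhibitory receptor for MHC class II, read 3.58 at 4 h and 8.97 at 14 h, and Cd48, a ligand of the SLAM family, fell by 2.27 ± 0.06. The falls in this list numbered 3 with the most variable probe set of each gene. TNF superfamily ligands and receptors rose in 9 of 13 and fell in 3 (median 1.09). The costimulatory receptor Tnfrsf9 went from 5.85, 5.85 and 5.84 to 9.94, 9.62 and 9.54 (3.85 ± 0.09) and Tnfrsf4 from 7.19, 7.19 and 7.15 to 10.21, 9.83 and 9.92 (2.81 ± 0.15). Tnfsf11, the RANK ligand, rose by 2.23 ± 0.09, the death ligand Tnfsf10 fell by 2.07 ± 0.18, and Cd40lg, near the floor on all 6 arrays, did not reach the filter.

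**Figure D3:**
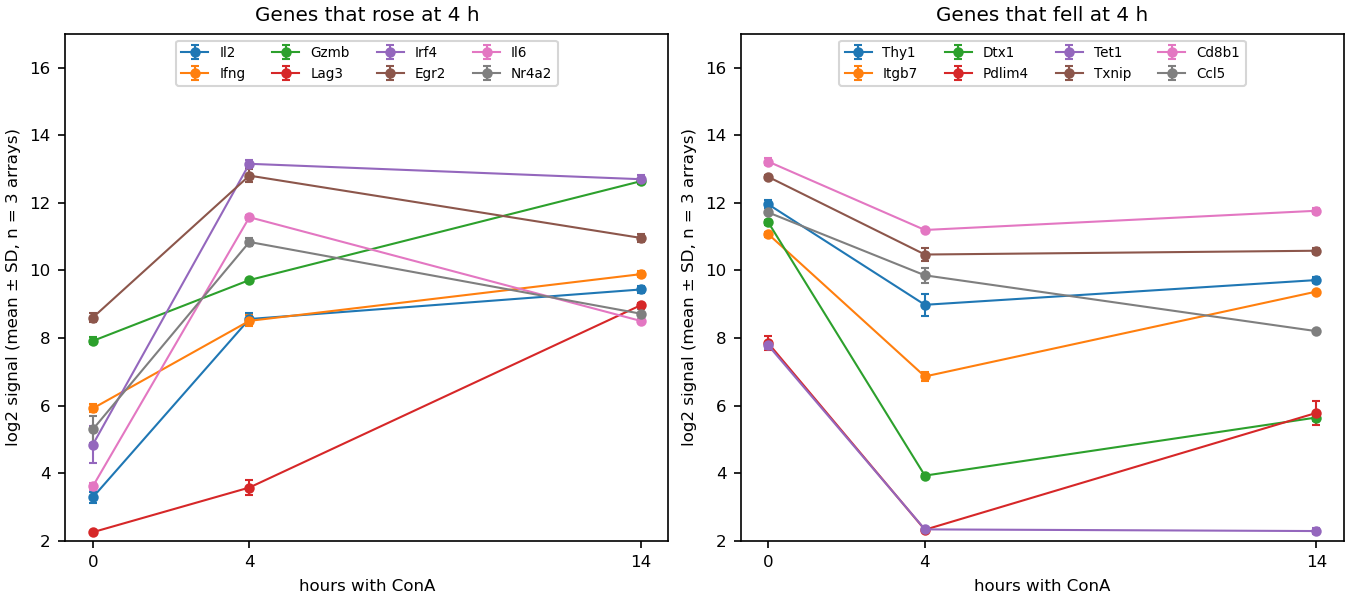
Mean log2 signal ± SD (n = 3 arrays, vertical axis) of 8 genes that rose at 4 h (left) and 8 that fell (right), at 0, 4 and 14 h with ConA (horizontal axis). Il2, Ifng, Gzmb and Lag3 were higher at 14 h than at 4 h, Il6, Nr4a2 and Egr2 lower, and Dtx1, Pdlim4 and Itgb7 had come back in part while Tet1 had not.

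Receptors for migration and adhesion fell more often than they rose, 13 against 10 of 25 (median -0.44). Itgb7, a subunit of gut-homing integrins, went from 11.15, 11.01 and 11.06 to 7.0, 6.74 and 6.84 (-4.21 ± 0.07) and stood at 9.37 at 14 h. Its partners Itgae (-2.12 ± 0.30) and Itga4 fell as well. Cd69, an early activation antigen that holds T cells in lymphoid tissue, went from 10.88, 10.64 and 10.78 to 13.11, 13.27 and 13.40 (2.50 ± 0.11), and S1pr1, the exit receptor that Cd69 protein removes from the surface, fell by 1.19 ± 0.14. Gpr183, a positioning receptor for oxysterols, rose by 1.98 ± 0.09, and Ccr7 (12.42 at both times) was not called. Enzymes that build, trim or remove sialic acids and N-glycans fell in 15 of 22 and rose in 5, or in 13 and 4 of the 19 with a 0 h mean of at least 5. The sialyltransferase St3gal1 went from 6.40, 7.18 and 5.87 to 4.05 on each array (-2.44 ± 0.25), Cmah, which makes the glycolyl form of sialic acid, from 10.81, 10.84 and 10.81 to 8.42, 8.34 and 8.41 (-2.43 ± 0.16), and St8sia4 fell by 2.05 ± 0.06. Mgat5, which branches N-glycans and so raises galectin binding, rose by 1.44 ± 0.15 (0.73 with the mean of its probe sets), and the mannosidase Man1a by 1.25 ± 0.07.

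Genes that hold lymphocytes at rest fell. Of 30 quiescence factors 21 fell and 5 rose (median -0.68). Pik3ip1, an inhibitor of PI3 kinase, went from 10.53, 10.53 and 10.42 to 7.76, 7.91 and 7.89 (-2.64 ± 0.16), Txnip, which restrains glucose uptake, from 12.83, 12.70 and 12.77 to 10.27, 10.52 and 10.63 (-2.30 ± 0.09), and the mTOR inhibitor Ddit4 fell by 2.17 ± 0.10. Slfn5 fell by at least 2.26 ± 0.21 (-1.02 with the mean of its probe sets), Foxo1 by 1.06 ± 0.12 and Klf2 by 0.84 ± 0.07. The 5 that rose were Klf4 (not called in 19 of 29 other settings), Tob2, Slfn1 (not called without the arrays of uneven spike-in), Slfn2 (0.70 ± 0.10) and Sesn3 (0.90 ± 0.11). Of 8 Gimap GTPases, which support survival of resting T cells, 5 fell and 2 rose (median -0.29): Gimap7 went from 10.19, 10.32 and 10.05 to 8.66, 8.22 and 8.32 (-1.78 ± 0.15), Gimap5 fell by 0.82 ± 0.11, and Gimap9 rose from a mean of 11.49 ± 0.02 to 12.09 ± 0.09 (SD, n = 3; 0.60 ± 0.07). In the Notch pathway 5 of 14 fell, close to the 32.5% of all genes tested, and 2 rose (median -0.17). After Dtx1 these were Dtx3 (-1.36 ± 0.30) and the glycosyltransferase Lfng (-1.22 ± 0.13; -0.63 with the mean of its probe sets), while Rbpj, the DNA-binding factor of the pathway, rose by 1.12 ± 0.08 (2.43 with its most variable probe set). With the T cell arrays alone 8 of this list fell and 4 rose, and without the 0 h replicate 3, 1 rose.

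Feedback inhibitors of ERK signalling rose in 9 of 15 and fell in 2, or in 7 and 2 of the 12 with a 0 h mean of at least 5. After Spry1, the phosphatase Dusp4 went from 4.79, 5.08 and 5.00 to 8.46, 8.65 and 8.64 (3.63 ± 0.09), Dusp5 from 7.59, 7.67 and 7.34 to 10.64, 10.90 and 10.76 (3.23 ± 0.09), and Dusp16, which acts on JNK and p38, rose by 2.91 ± 0.12. None of these overlapped between the groups. Regulators of G protein signalling (Rgs) moved in both directions, 4 of 9 each way (median -0.23): Rgs16 went from 4.51, 5.43 and 5.46 to 10.07, 9.70 and 9.88 (4.75 ± 0.28) and Rgs1 rose by 3.23 ± 0.16, whereas Rgs11 went from 6.40, 6.38 and 6.37 to 2.47, 2.47 and 2.59 (at least -3.88 ± 0.05) and Rgs14 fell by 3.43 ± 0.16. Regulators of mRNA decay rose in 8 of 14 and fell in 3 (median 0.41). Zc3h12d went from 8.01, 7.82 and 7.86 to 10.42, 10.60 and 10.49 (2.61 ± 0.17), Arid5a, which protects Il6 and other messages from decay, from 7.69, 7.69 and 7.62 to 9.47, 9.46 and 9.38 (1.77 ± 0.08), and Zc3h12a (Regnase-1), a nuclease that cuts such messages, rose by 1.29 ± 0.19 (0.47 with its most variable probe set). Celf2, a splicing and stability factor, fell by 1.24 ± 0.07 (-2.90 with its most variable probe set).

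Death and survival genes rose in 10 of 18 and fell in 5 (median 0.35). Gadd45b, a stress-induced activator of MAP kinase signalling, went from 6.71, 6.87 and 6.38 to 10.58, 10.47 and 10.43 (3.84 ± 0.10). Pro-death and pro-survival members rose together: Pmaip1 (Noxa) from 7.22, 7.07 and 7.22 to 8.95, 8.93 and 9.03 (1.80 ± 0.10), Bcl2l11 (Bim) by 1.76 ± 0.06 (4.33 with its most variable probe set) and the survival gene Bcl2l1 (Bcl-xL) by 1.62 ± 0.10 (0.38 with its most variable probe set). In the network of Myc partners and antagonists 3 of 11 rose and 3 fell, near the background of all genes. The Myc antagonist Mxd1 rose from 5.95, 6.11 and 5.81 to 8.47, 8.52 and 8.34 (2.49 ± 0.13), and Mxd4 fell from 9.25, 9.49 and 9.29 to 7.26, 7.0 and 6.99 (-2.26 ± 0.17; -1.19 with the mean of its probe sets). Mycn fell by at least 1.15 ± 0.05, and Max, the partner Myc needs to bind DNA, changed by 0.21 ± 0.19 and was not called (called at 0.42 without the 4 h replicate 1). Without the 0 h replicate 2 this list had 5 falls. DNA methylation genes rose in 3 of 9 and fell in 4 (median -0.38), where 33.4% and 32.5% of all genes tested did. Beside Tet1, Uhrf1 went from 8.19, 8.63 and 8.29 to 7.03, 6.47 and 6.90 (-1.57 ± 0.16), the maintenance enzyme Dnmt1 fell by 1.30 ± 0.09 and the de novo enzyme Dnmt3b rose by 0.71 ± 0.11.

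Of 27 ribosome biogenesis genes 26 rose, 20 of them at least 2-fold, and 1 fell (median 1.19). Polr1b, a subunit of RNA polymerase I, went from 6.78, 6.34 and 6.55 to 8.93, 9.03 and 9.07 (2.45 ± 0.13), and Rrp9, which acts in processing of ribosomal RNA, from 6.57, 6.40 and 6.53 to 8.58, 8.83 and 8.70 (2.20 ± 0.28). Rrp12 rose by 1.95 ± 0.10 and Nop16 by 1.88 ± 0.09, and the exception was Ubtf, the polymerase I factor, at -0.26 ± 0.06 (-1.13 with its most variable probe set). In B cells with LPS the same 4 genes rose further, by 3.72 (Polr1b), 4.87 (Rrp9), 4.59 (Rrp12) and 3.48 (Nop16), and each difference between the responses was called.

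Of 32 genes for one-carbon, nucleotide and polyamine synthesis 21 rose and 5 fell (median 0.68). Shmt1 went from 6.93, 7.14 and 6.59 to 9.35, 8.99 and 9.35 (2.34 ± 0.16; 4.63 with its most variable probe set), the polyamine enzymes Smox (2.13 ± 0.14), Odc1 (2.12 ± 0.09) and Srm (2.07 ± 0.08) rose, and 2 AMP deaminases fell, Ampd1 and Ampd3, the second from 8.30, 8.50 and 8.17 to 4.49, 3.40 and 3.71 (at least -4.46 ± 0.28). Serine synthesis genes split: Phgdh (-0.82 ± 0.10) and Psph (-0.68 ± 0.07) fell, while Psat1 rose by 1.74 ± 0.11. Phgdh and Psph read higher at 14 h (10.71 and 10.13) than at 4 h (9.70 and 8.92). Nutrient transporters rose in 11 of 16 and fell in 2, or in 9 and 2 of the 13 with a 0 h mean of at least 5. The nucleoside carrier Slc29a1 went from 5.00, 3.95 and 4.89 to 6.92, 8.41 and 8.12 (3.20 ± 0.33), the amino acid carriers Slc7a5 and Slc7a1 rose by 2.56 ± 0.15 and 2.01 ± 0.09 (Slc7a1 1.34 with the mean of its probe sets), and the transferrin receptor Tfrc by 2.13 ± 0.06 (1.10 with that mean). Glucose carriers did not follow: Slc2a3 fell by 1.81 ± 0.09 (its most variable probe set did not move) and Slc2a1 changed by 0.12 ± 0.12 and was not called.

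Glycolysis genes rose in 8 of 17 and fell in 5 (median 0.21). Hk2, the inducible hexokinase, went from 5.13, 4.85 and 4.99 to 7.72, 7.82 and 7.73 (2.76 ± 0.21), and Pgam1 and Ldha rose by 1.33 ± 0.13 and 0.82 ± 0.08. The phosphofructokinase Pfkm went from 5.82, 5.35 and 5.43 to 4.16, 3.62 and 3.52 (at least -1.76 ± 0.33), and the pyruvate dehydrogenase kinase Pdk1 fell by 1.47 ± 0.19. Cholesterol genes rose in 10 of 16 and fell in 4 (median 0.93). Several synthesis enzymes rose, with Cyp51 from 7.34, 7.35 and 7.34 to 9.50, 9.82 and 9.87 (2.39 ± 0.10; 1.57 with the mean of its probe sets), Idi1 at 1.91 ± 0.08 and Sqle at 1.68 ± 0.07, but Dhcr7, of the last step, fell by 1.19 ± 0.30 and Lss was not called (0.37 ± 0.20). The efflux pumps Abcg1 (10.21, 10.13 and 10.21 to 8.50, 8.34 and 8.30; -1.80 ± 0.10) and Abca1 (-1.20 ± 0.08; -0.01 and not called with its most variable probe set) and the ligase Mylip, which degrades the LDL receptor (-1.53 ± 0.07), fell.

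Cell cycle genes of G1 fell in 12 of 17 and rose in 4 (median -0.83). The cell cycle inhibitor Cdkn1a (p21) rose from 4.37, 3.35 and 3.20 to 7.59, 7.17 and 6.99 (at least 3.61 ± 0.23), E2f2, which restrains T cell division, fell from 7.01, 7.11 and 7.11 to 4.31, 4.21 and 3.73 (-3.0 ± 0.20), and E2f8 (at least -2.84 ± 0.19; -1.42 with the mean of its probe sets), the inhibitor Cdkn2d (-2.33 ± 0.07) and the cyclin Ccnd3 (-1.89 ± 0.07) fell. Ccnd2 and Cdk6 fell by 0.52 ± 0.08 and 0.46 ± 0.06 in T cells (Cdk6 -0.26 with the mean of its probe sets), and both rose in B cells with LPS, by 4.57 and 2.01. Cdk4 rose by 0.35 ± 0.09.

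Cytotoxic effector genes rose in 4 of 10 and fell in 5 (median -0.29). Granzyme B (Gzmb) went from 7.89, 8.03 and 7.83 to 9.75, 9.71 and 9.69 (1.80 ± 0.12) and stood at 12.64 at 14 h, and its inhibitor Serpinb9 rose by 1.32 ± 0.09. Perforin (Prf1) fell by 1.80 ± 0.17 (-0.90 with the mean of its probe sets) and the granule protein Nkg7 went from 11.73, 11.77 and 11.74 to 9.87, 9.35 and 9.44 (-2.19 ± 0.16). Both are also on the list of natural killer markers, where 3 of 4 tested fell (Nkg7, Prf1 and the receptor chain Klrd1) and the summed linear signal was 7561 to 7757 at 0 h and 2980 to 3483 at 4 h. Ncr1, Klra8 and Klre1 lay near the floor in both groups, and the part of natural killer cells in these falls was not tested.

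All 8 tested GBP and IRG GTPases, which are induced above all by interferon gamma and attack vacuoles of pathogens, rose at least 2-fold (median 1.86). Gbp2 went from 10.49, 10.68 and 10.58 to 13.93, 13.77 and 13.83 (3.26 ± 0.08) and Iigp1 from 8.15, 8.27 and 8.19 to 11.70, 11.48 and 11.52 (3.36 ± 0.13). Of 16 antiviral genes of the type I interferon response 10 fell and 1, Bst2 (1.17 ± 0.16), rose; of the 11 with a 0 h mean of at least 5, 9 fell and 1 rose. Ifit1 went from 7.05, 7.35 and 6.68 to 5.45, 4.54 and 4.54 (-2.19 ± 0.22), Cmpk2 from 6.67, 6.86 and 7.15 to 3.14, 2.79 and 3.58 (at least -3.72 ± 0.32; -1.87 with the mean of its probe sets), Ddx58 fell by 1.76 ± 0.13 (-0.58 with its most variable probe set) and Ifit3 by 1.75 ± 0.20. In B cells with LPS Ifit1 rose by 7.36 ± 0.22.

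Among clock genes 7 of 10 rose and 1 fell (median 0.56). Per1 rose by 2.01 ± 0.06, Per2 by 1.37 ± 0.15 and the repressor Ciart from 2.75, 2.83 and 2.75 to 5.13, 5.25 and 5.24 (at least 2.43 ± 0.17), while Dbp, an output factor of the clock, went from 9.23, 9.10 and 8.98 to 7.07, 6.55 and 6.59 (-2.37 ± 0.18). The time of day of each harvest is not in the labels, so it cannot be told apart from the treatment. Among 10 heat shock genes 5 rose, with the cytosolic chaperone Hsph1 at 1.11 ± 0.07 and the mitochondrial chaperonin Hspd1 at 1.08 ± 0.08, and the 2 that fell were Hspa1a and Hspa1b; with the mean of the probe sets or the most variable one, 4 of the list fell.

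**Figure D4:**
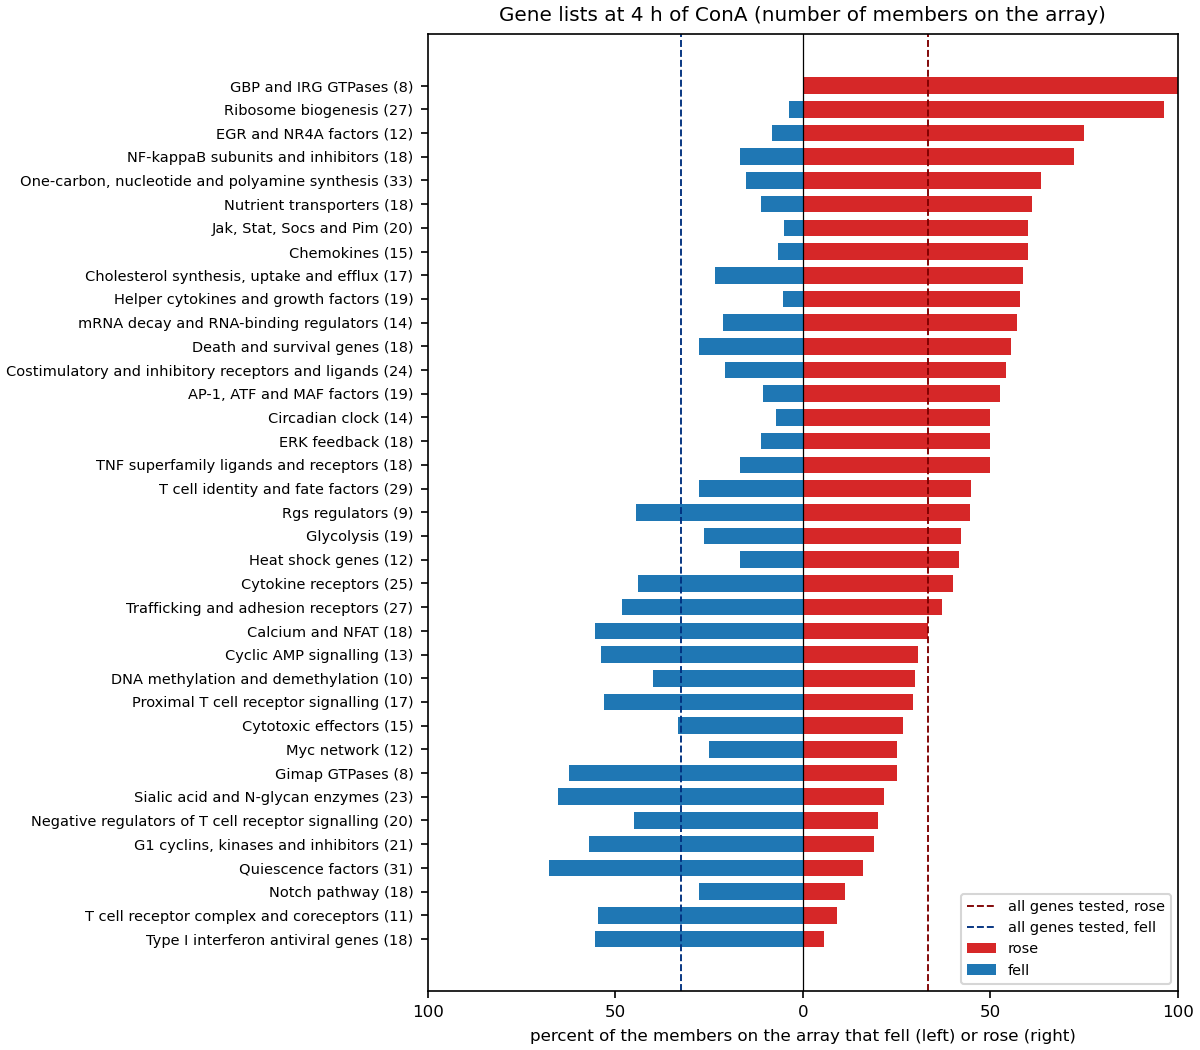
Percent of the members on the array of each gene list that rose (right, red) or fell (left, blue) after 4 h of ConA, those below the filter counted as neither, with the number on the array in parentheses and dashed lines at the shares of all genes tested, 33.4% and 32.5%. The lines leave out genes below the filter while the bars include them, so the bases of bars and lines differ. GBP and IRG GTPases and ribosome biogenesis genes stand farthest to the right, and quiescence factors and sialic acid and N-glycan enzymes reach farthest to the left.

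Between 4 h and 14 h of ConA, 4427 genes (48.9%) differed, 2479 higher and 1948 lower at 14 h; this comparison uses the same 4 h arrays, so the values are given side by side and no agreement is read from them. Among the largest rises, Il6 was lower at 14 h by 3.07, Frmd4b by 2.53 and Nr4a2 by 2.12, whereas Il2 was higher by 0.87 and Lad1 differed by -0.18, which was not called. Among the largest falls, Pdlim4 was higher at 14 h by 3.46, Dtx1 by 1.72 and Sit1 by 1.43, and Hspa1b was lower by 1.49.

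The response to ConA in T cells was set against the response to LPS in B cells over separate arrays. Of the 9045 genes 3152 changed more upward in T cells and 2830 more downward. Il2 and Spry1 rose in T cells, and their changes in B cells were -0.09 ± 0.13 and -0.00 ± 0.15, with differences of 5.37 and 5.90 that were called. Il21, Pdcd1, Ptger2 and Tnfsf11 likewise changed by 0.04 or less in B cells. 89 genes (0.984%) were called in opposite directions with at least 2-fold change in each. Frmd4b rose by 5.60 in T cells and fell by 3.29 in B cells, and Sh3bp2 rose by 5.00 and fell by 1.17. Irf4 rose in both, by 8.31 and 2.62, Il6 by 7.96 and 8.36, and Ccl4 by 6.31 and 5.48, a difference that was not called (adjusted p = 0.119 by limma). The agents, doses and cell types differ together, so these are differences between the 2 stimulated preparations.

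**Figure D5:**
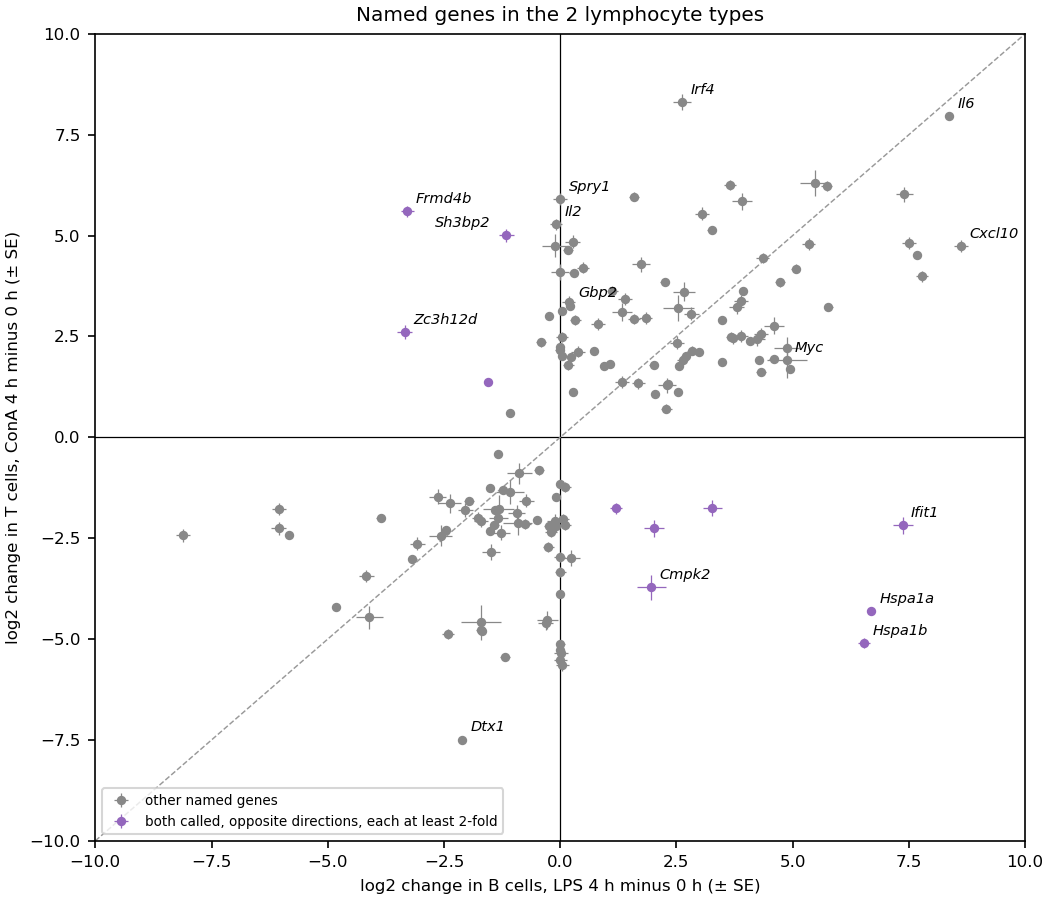
Log2 change ± SE in T cells with ConA (vertical axis) against that in B cells with LPS (horizontal axis) for the 162 named genes, each over 3 against 3 arrays; the dashed line marks equal change. Purple points were called in opposite directions with at least 2-fold change in each, among them Frmd4b (5.60 and -3.29) and Hspa1b (-5.10 and 6.53).

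Markers of other cells moved in places. The neutrophil alarmins S100a8 and S100a9 read 7.48 and 6.20 at 0 h, 10.19 and 8.65 at 4 h and 4.67 and 2.65 at 14 h, while the granule enzyme Mpo fell by 1.39 ± 0.16 and Elane, Camp, Ltf and Csf3r were near the floor at both times compared; the summed linear signal of the 7 neutrophil markers was 303 to 368 at 0 h and 1418 to 2022 at 4 h. Cr2, a complement receptor of B cells, rose from 3.25, 3.25 and 2.76 to 6.05, 6.42 and 6.48, Fcer2a by 1.88 ± 0.14 (0.01 and not called with its most variable probe set) and Ms4a1 by 0.95 ± 0.29 (0.57 and not called without the 0 h replicate 3, 0.69 and not called without the 4 h replicate 1), while Cd79b fell by 0.53 ± 0.09. Il6 and the chemokines Ccl3 and Ccl4 can be made by myeloid and B cells too; the part of such cells in their rises was not tested. For the 28 largest changes and Myc, 14 genes had 28 other probe sets: 20 differed in the same direction as the 1 used, and 8 read the same at both times. All 11 that reached a group mean of 5 were among the 20. The other probe sets stayed below that level, with differences as small as 0.06 (Plagl1), and the 8 lay near the floor. Their directions therefore carry little information.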

How the data were processed

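RNA of 15 samples (3 arrays in each of 5 groups) was labelled from equal mass and hybridised to Affymetrix mouse arrays. The deposited values are log2 signals that the authors made with GCRMA, per the submitters' processing notes; its version is not stated there. Of 45101 probe sets 34958 carry 1 gene symbol in the platform annotation, 932 several and 9211 none; the probe set with the highest mean stood for each of 18194 genes. The 9045 genes whose mean reached 5 in any group were kept. A model of the 5 group means over all 15 arrays was fitted with limma 3.58.1 (R 4.3.3, empirical Bayes, 10 residual degrees of freedom), and p-values were adjusted by Benjamini-Hochberg over 9045 genes. The model was tested on simulated data. The precision is limited by 3 arrays per group.

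The genes named are Myc, the 14 largest rises and the 14 largest falls that reached a group mean of 7 and whose 0 h and 4 h arrays did not overlap, leaving out antigen receptor segments, unnamed genes and Xist; then up to 4 called members of each list with the largest change, members against their list and members not called. Others were chosen after their values were seen: the genes set against B cells or 14 h, the marker genes and some further list members. Members and lists were chosen with earlier results of these data known. Promoters and microRNAs came from RefSeq tables (GRCm38.p6), read with Python 3.11.15 and pandas 2.3.3. 31 alternative settings were tried: other samples in the fit, a replicate block, weights, scalings, filters, probe set rules, and leaving out each array. Some genes of these pathways were not analysed here.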

Additional observations from a re-analysis of the deposited data

Results flagged for a closer look

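30 of the 665 named, list and marker genes tested were called in opposite directions in T cells with ConA and in B cells with LPS, at least 2-fold in each, with the difference itself called by limma over 3 arrays per group. By the same rule 89 of all 9045 genes (0.984%) and 59 of the 8380 others (0.704%) did so; the named and list genes were partly chosen for large changes in T cells, so their share of 4.51% is no evidence about them. 14 of them went lower in T cells and 16 higher. The heat shock genes Hspa1b and Hspa1a gave the widest gaps, T cell change minus B cell change of -11.63 and -10.99; Hspa1b changed by -5.10 and 6.53 in T and B cells.

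7 antiviral genes induced by type I interferon fell in T cells and rose in B cells. The difference was -9.55 for Ifit1, -5.68 for Cmpk2, -5.59 for Mx1, -5.02 for Ifit3, -4.60 for Ifit2, -2.96 for the RNA sensor Ddx58 and -2.35 for Oas1a. The Schlafen genes Slfn5 and Slfn8 differed by -4.28 and -3.18. The chemokine Ccl5 differed by -5.07, the survival receptor Il7r by -4.54 and the factor Runx3 by -2.32. In T cells Mx1 was near the floor at both times, and Cmpk2 (3.17) and Slfn5 (3.60) were near it at 4 h. The T cell falls of these genes are lower bounds.

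In the other direction, Frmd4b differed by 8.88 and the adaptor Sh3bp2 by 6.17. Signalling genes that rose in T cells and fell in B cells were the RNA regulator Zc3h12d, with a difference of 5.95, the factor Egr3 with 5.26, its corepressor Nab2 with 2.80, the adaptor Sla with 3.62, the calcineurin subunit Ppp3cc with 3.30 and the protease Malt1 with 2.93. The lymphocyte factors Ikzf3 and Bach2 differed by 4.92 and 3.60, the chemokine Cxcl9 by 3.65, the receptor chain Ifngr1 by 2.50 and the mannosidase Man1a by 3.20. Markers of other cells were among them: S100a8 and S100a9 differed by 5.72 and 5.69 and Cr2 by 5.23. Sh3bp2 and Cr2 were near the floor at 0 h in T cells, so their T cell rises are lower bounds.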

How the results depend on the processing

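The counts of rises, falls and 2-fold changes, of differences at 14 h and of differences from B cells stayed within 1.5 times their value over the alternatives, and the 265 genes with values in the text kept direction and call in 8109 of 8187 values. Of the called genes among them 239 kept their call in every setting in which they passed the filter. Plagl1, Tet1, Slc16a5 and Myh10, for example, were each tested in 30 of the 31 settings. The other 12 called genes, which did not keep their call, were Abca1, Cd28, Eif2s3y, Fcer2a, Fos, Jdp2, Kdm5d, Klf4, Ms4a1, Slc2a3, Slfn1 and Uty. Klf4 lost it most often, in 19 settings, and read 0.23 without the 4 h replicate 1. Of the 14 genes not called 10 were called somewhere, among them Gata3, Ier2, Max and Cd6. With the most variable probe set Slc2a3 gave 0.0 and Eif2s3y -0.000838, and with the mean of probe sets Cd247 gave -0.33; the cause was not tested. Over the 31 settings 2581 to 3281 genes rose and 2487 to 3212 fell; leaving out 1 array gave 2764 to 3075 and 2707 to 2968. Deviations of same-numbered arrays correlated at -0.317, -0.457 and 0.236. The highest correlation, 0.575, was between the 0 h replicate 2 and the 4 h replicate 1, the arrays of uneven spike-in. With so few arrays per group, and a deviation those arrays may share, these values cannot decide whether replicate numbers paired the samples. With the replicate block 2982 genes rose and 2907 fell. 61 genes moved by over 1.5 times, 53 of them under another rule for choosing the probe set and 13 under other settings, where 11 were not called and the others were Klf4 and Ms4a1. 9 of 74 list counts moved by over 1.5 times somewhere, among them falls of ERK feedback genes (1 at a mean of at least 7). Other scalings moved the median change to between -0.015 and 0.037. These scalings also bring the arrays to a common level, so they do not test the balance of rises and falls. Il2, Il6 and other genes near the floor at 0 h, and Dtx1 and others near it at 4 h, have bounds only.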
